A study of Drosophila melanogaster with 31 samples.

Results

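The genes described here were higher in *ato*GFP+ cells than in the other cells of the *Drosophila* embryo at the first of 3 time points and no longer so at the last. They were 81 of 11982 genes measured. A gene was kept when its mean log2 level in wild-type GFP+ cells exceeded that in GFP− cells at least 1.5-fold at t1 and by less than 0.2 at t3, and when the difference at t2 was less than 0.4 above that at t1. That difference in log2 level is called the enrichment below. Each gene was read from 1 probe set, the brightest over 31 arrays of those that name it alone. The wild-type enrichments at t1, t2 and t3 therefore chose the genes and are given as a description without a test, as are the wild-type levels behind them. The arrays of mutant cells played no part in the choice except in picking the brightest probe set, and the mutant enrichment was tested.

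The cells came from embryos carrying GFP under an enhancer fragment upstream of *ato*, dissociated and separated by flow cytometry into GFP+ and GFP− cells. Wild-type cells (genotype atoGFP.7;w118) were taken at t1 (5.75 to 6.75 h after egg laying), t2 (6.75 to 7.75 h) and t3 (7.75 to 8.75 h). Mutant cells (atoGFP.7;ato(mutant);w118, an *ato1* background per the study's methods) were taken at t1. Each group has 4 arrays except wild-type GFP− cells at t3, which has 3. atoGFP.7 is 1 transgenic line that all groups share, GFP+ cells also include *ato*-expressing cells other than sensory precursors, and GFP− cells are the remainder of the whole embryo. Far fewer GFP+ cells were collected from mutant than from wild-type embryos.

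*ato* encodes a proneural basic-helix-loop-helix factor that commits ectodermal cells to become precursors of chordotonal (stretch and sound receptor) organs and of the larval eye. Precursors then divide asymmetrically, and their progeny differentiate as neurons and support cells. At the same ages neuroblasts of the brain and nerve cord pass through a series of temporal transcription factors, the head placodes and optic lobe primordium are patterned, and genes of the early embryo are shut down. A gene can stop being enriched in the sorted cells because its level falls there or because it rises elsewhere, so the change of level was followed in each fraction. In these bulk samples a smaller share of cells expressing a gene and less RNA per cell cannot be told apart.

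Of 325 genes enriched at least 1.5-fold at t1, 85 lay below 0.2 at t3. The limit at t2 left out 4 of them. Another 153 were enriched at least 1.5-fold at both times, and 87 lay between. Depleted genes lost their difference as well. Under the mirrored rule 125 of 596 genes depleted at t1 (21%) had lost their depletion, beside 81 of 325 (24.9%) for the enriched genes. Nearest inside the limit at t1 were *mahe* (0.59), *gkt* (0.60) and *Abca3* (0.60), and nearest outside it *lz* (0.58), *Pdk1* (0.58) and *RnrL* (0.58). At t3 *toy*, *ppk30* and *twz* lay just inside (each 0.20) and *Cyp301a1* (0.20), *unc-5* (0.21) and *Ir93a* (0.21) just outside. At t2 the nearest inside were *CG3430* (enrichment 1.17), *RecQ4* (0.98) and *dpn* (1.06), and the nearest outside *Orc1* (1.15), *phtm* (1.80) and *PolA2* (1.34).

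The median enrichment of the 81 genes was 0.82 at t1 (range 0.59 to 2.49), 0.60 at t2 and 0.03 at t3 (range −0.72 to 0.20), beside medians of 0.01 at each of these times over all genes. The largest values at t1 belonged to *svp* (2.49), *CG32447* (2.11), *CG11382* (1.97), *Atet* (1.79), *CG32037* (1.75), *toy* (1.65), *halo* (1.60), *amd* (1.59), *CG17646* (1.56), *CG13653* (1.49), *CG31464* (1.33) and *CG6330* (1.33). Most of the loss came late. At t2, 42 genes were still enriched at least 1.5-fold and 9 were below 0.2, and in 23 genes the drop from t1 to t2 was larger than that from t2 to t3. By t3 the difference had turned negative in 37 genes, and in *Cse1* (−0.72), a nuclear transport receptor, and *grsm* (−0.60), an aminopeptidase gene, GFP− cells exceeded GFP+ cells at least 1.5-fold.

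**Figure D1:**
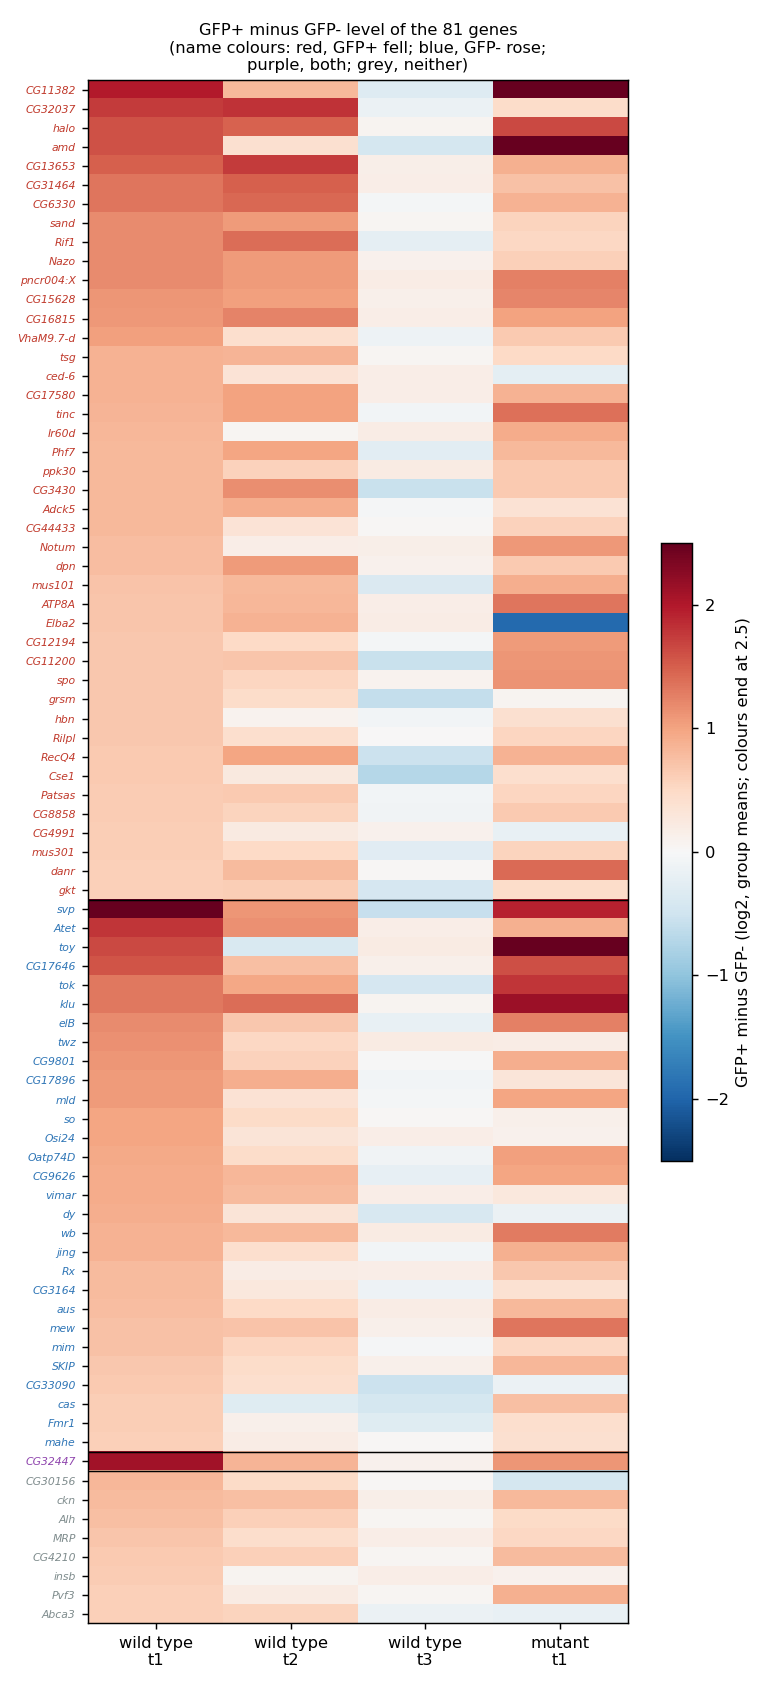
Enrichment (GFP+ minus GFP− group means, log2) of the 81 genes in wild type at t1, t2 and t3 and in mutant cells at t1, colour scale ending at 2.5 in either direction. Rows are grouped by the fraction whose level changed and ordered by the value at t1; the first columns are set by the rule, while the mutant column is red for most genes and strongly blue for *Elba2* (−1.93).

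Fall and rise were told apart with a limit of 1.5-fold on the change of the group mean from t1 to t3. In 43 genes the GFP+ level fell by that much while the GFP− level did not rise (14.6% of all genes did so). In 29 genes the GFP− level rose while the GFP+ level did not fall (13.7% of all genes). Both changes were seen in 1 gene, *CG32447* (0.0501% of all genes), and neither reached the limit in 8 (71.7% of all genes). Since the rule bounds the GFP+ change minus the GFP− change (−3.07 in *svp* to −0.48 in *insb*), nothing is read from these shares beyond the split. All 4 GFP+ arrays of t3 lay below all 4 of t1 in 49 of the 81 genes (28.0% of all genes), and all 3 GFP− arrays of t3 lay above all 4 of t1 in 35 (21.9%).

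**Figure D2:**
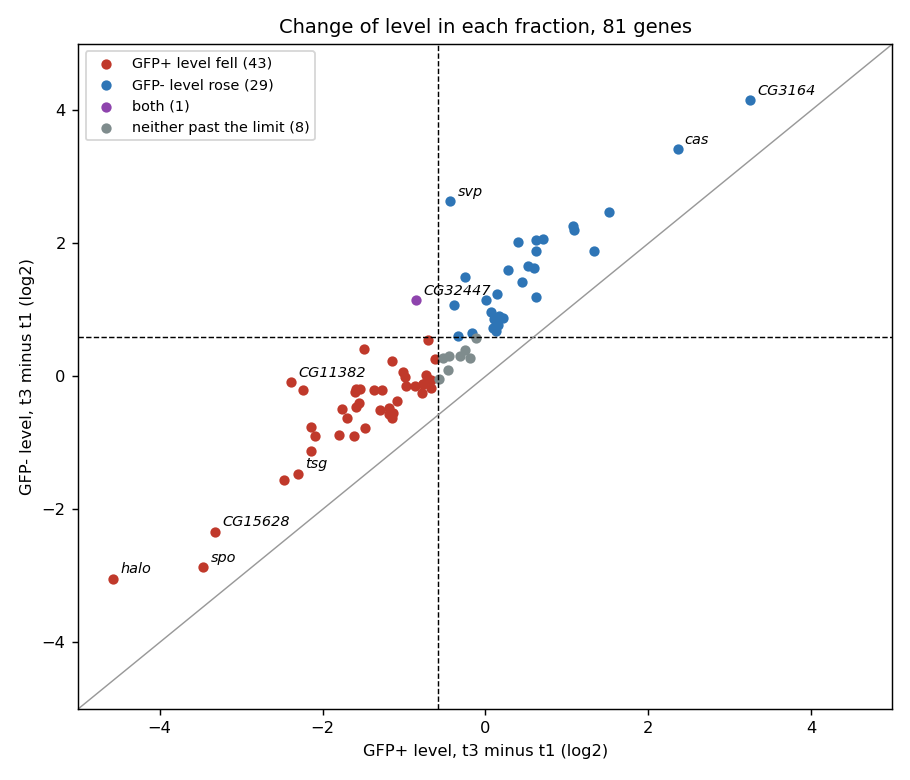
Change of the GFP− level against that of the GFP+ level from t1 to t3 (log2, group means), with a point for each of the 81 genes, dashed lines at the 1.5-fold limits of fall and rise, and the diagonal of equal change in grey. All points lie above the diagonal because of the rule; 43 lie beyond the limit to the left alone, 29 beyond the limit upwards alone and 1 beyond both.

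The genes whose GFP+ level fell had a median level of 7.79 in GFP+ cells at t1, 6.70 at t2 and 6.20 at t3. In GFP− cells their median level was 6.77, 6.01 and 6.41. The median level of all genes was 5.61, 5.61 and 5.99 in GFP+ cells and 5.68, 5.68 and 6.03 in GFP− cells, so it stood higher at t3 in both fractions. From t1 to t2 both fractions went down by similar amounts (medians −0.58 in GFP+ and −0.51 in GFP−), and in 20 of the 43 the enrichment at t2 was above that at t1. From t2 to t3 the GFP+ level went down again (median −0.67) while the median GFP− change was 0.03. Over all genes these 4 medians lay between −0.09 and 0.03. In 30 of the 43 the GFP− change over the whole interval stayed within the limit, and in 13 the GFP− level fell past it too. Over all genes, 1753 had such a GFP+ fall, with 389 within the limit in GFP− cells and 1364 falling there too. The rule bounds the GFP+ change minus the GFP− change, so nothing is read from this difference in shares.

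*CG11382*, a gene without an assigned function here, belonged to the first kind. Its log2 level in GFP+ cells was 8.30, 8.19, 8.19 and 8.27 at t1 and 5.64, 5.75, 6.18 and 5.80 at t3, a 5.25-fold fall (−2.39 ± 0.14, SE of the model). In GFP− cells it was 6.42, 6.33, 6.36 and 5.93 at t1 and 6.04, 6.37 and 6.11 at t3. The GFP+ arrays of the 2 times do not overlap and the GFP− arrays do. The study's in situ hybridisation saw *CG11382* RNA in the peripheral nervous system from about the age of t3 onwards. It was stronger there in chordotonal cells. How that pattern relates to the array levels was not tested. *amd*, a member of the aromatic amino acid decarboxylase family needed for cuticle, went from 9.86, 9.74, 9.96 and 9.91 in GFP+ cells at t1 to 7.64, 7.60, 7.69 and 7.58 at t3. Its GFP− levels of 8.22, 8.26, 8.52 and 8.12 at t1 overlap those of 8.39, 7.95 and 7.88 at t3. Most of its fall was complete at t2, when the 4 GFP+ arrays read 7.35, 7.45, 7.98 and 7.57.

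In 13 genes the level went down in both fractions and further in GFP+ cells. They were *halo*, *spo*, *CG15628*, *CG16815*, *tsg*, *gkt*, *CG3430*, *RecQ4*, *tinc*, *Phf7*, *CG12194*, *CG17580* and *Elba2*. *halo*, which regulates transport of lipid droplets in the early embryo, had the largest fall of all 81 genes. In GFP+ cells it read 9.49, 9.68, 9.42 and 9.64 at t1, 8.92, 9.10, 8.70 and 8.76 at t2 and 4.91, 4.49, 5.11 and 5.42 at t3, a 23.8-fold fall. In GFP− cells it stood at 8.16, 7.93, 7.80 and 7.93 at t1 and at 4.99, 4.94 and 4.81 at t3. The fractions were apart on all arrays at t1 and t2 and overlapped at t3, where both were low. *spo*, a Halloween cytochrome P450 of ecdysone synthesis, fell 11.1-fold in GFP+ cells, from 7.89, 7.88, 8.02 and 8.12 to 4.22, 4.53, 4.63 and 4.66. Its GFP− level fell by 2.87. *tsg*, a secreted protein that binds the BMP ligand Dpp, fell 4.94-fold in GFP+ cells, from 7.50, 7.43, 7.18 and 7.39 to 4.84, 5.06, 5.21 and 5.17, and by 1.47 in GFP− cells. *CG15628* (−3.32) and *CG16815* (−2.47) complete, with *CG11382*, the 6 largest falls in GFP+ cells.

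*Rif1*, *RecQ4*, *mus301*, *mus101* and *gkt* were among the falling genes. They were picked after their values had been seen. *Rif1*, a regulator of replication timing, had an enrichment of 1.18 at t1, 1.39 at t2 and −0.23 at t3. Its GFP+ levels were 11.47, 11.39, 11.25 and 11.46 at t1 and 9.45, 9.80, 9.88 and 10.06 at t3, while its GFP− levels were 10.17, 10.06, 10.34 and 10.26 at t1 and 10.11, 9.96 and 10.00 at t3. The GFP+ arrays of t3 lie below all those of t1 and the GFP− arrays overlap. *RecQ4*, a helicase needed for replication, went from 8.80, 8.87, 8.84 and 8.90 to 6.36, 6.61, 7.05 and 7.03 in GFP+ cells and from an enrichment of 0.66 to −0.53. The helicase gene *mus301* (0.61 to −0.28), *mus101*, the TopBP1 homologue (0.72 to −0.35), and *gkt*, the tyrosyl-DNA phosphodiesterase (0.60 to −0.42), also ended below 0. None of the 81 stood on a list of 22 cell cycle and DNA replication genes. None of the 13 measured genes of that list was enriched 1.5-fold at t1, and the list's median went from 0.09 to −0.17. The limit at t2 leaves out genes that climb from t1 to t2. Among these were *Orc1* (0.67, 1.15 and −0.19 at t1, t2 and t3) and *PolA2* (0.63, 1.34 and −0.29). In the study's own annotation analysis, DNA replication terms increased at t2 and were gone at t3.

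The 29 genes with a rising GFP− level showed another course. From t1 to t3 their median level in GFP− cells went from 7.40 over 7.80 to 8.86, and in GFP+ cells from 8.21 over 8.19 to 9.0. The larger step came from t2 to t3, with a median change of 1.02 in GFP− and 0.44 in GFP+ cells. Over all genes the median level also stood higher at t3, as given above, while the median change per gene in this step was −0.09 in each fraction. In 11 of the 29 the GFP+ level also rose past the limit, by less than the GFP− level, and in 18 it stayed within it. Over all genes, 1636 had such a GFP− rise, with 1349 rising in GFP+ cells too and 287 within the limit there. This difference in shares also follows from the rule. The 6 largest rises in GFP− cells were those of *CG3164* (4.16), *cas* (3.42), *svp* (2.64), *twz* (2.47), *CG33090* (2.27) and *mld* (2.20).

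*svp*, an orphan nuclear receptor of the COUP-TF family that acts in photoreceptors and as a temporal switch in neuroblasts, had the largest enrichment at t1 (5.63-fold). Its GFP+ levels were 9.74, 9.86, 9.71 and 10.26 at t1, 10.23, 10.19, 10.16 and 10.40 at t2 and 9.07, 9.28, 9.61 and 9.88 at t3. Its GFP− levels were 6.90, 7.31, 7.72 and 7.67 at t1, 9.11, 9.31, 9.08 and 9.10 at t2 and 9.96, 10.20 and 9.96 at t3. The GFP− arrays rose 6.23-fold without overlap and ended above every GFP+ array of t3, whereas the GFP+ arrays of t1 and t3 overlap. *cas*, a zinc finger factor of the late temporal series in neuroblasts, rose in both fractions. It went from 6.23, 6.82, 7.15 and 6.81 to 9.95, 10.21 and 10.35 in GFP− cells (10.7-fold) and from 7.27, 7.37, 7.35 and 7.50 to 9.47, 9.64, 10.05 and 9.77 in GFP+ cells. *CG3164*, an ABC transporter of the G subfamily, rose 17.9-fold in GFP− cells, from 6.72, 6.90, 7.08 and 7.71 to 11.36, 11.46 and 10.96. Its GFP+ levels rose from 7.49, 7.75, 7.73 and 8.56 to 11.34, 11.21, 11.00 and 11.02, and its fractions overlap at both times.

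*Atet*, another ABC transporter of the G subfamily and known in *Drosophila* as an ecdysone exporter, rose in GFP+ cells by 0.40 only. The GFP+ arrays read 7.69, 7.88, 7.74 and 8.0 at t1 and 8.33, 8.21, 8.06 and 8.32 at t3, and the GFP− arrays 5.92, 5.95, 6.19 and 6.10 at t1, 7.09, 7.35, 6.72 and 7.02 at t2 and 8.18, 8.10 and 7.92 at t3. The GFP− level thus rose in each step (4.07-fold in all) until the fractions overlapped. Among the ABC transporters *Atet*, *CG17646* and *CG3164* had a GFP− rise and *MRP* and *Abca3* neither change. Among genes tied to ecdysone *spo* fell, while *Atet*, *mld* (a zinc finger gene needed for molting) and the importer gene *Oatp74D* had a GFP− rise. Both groupings were made after the values had been seen.

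Transcription factors of the larval eye and brain occurred in both classes. Of 15 measured genes on a list of larval eye and retinal determination genes, 8 were enriched 1.5-fold at t1 and 5 of these are among the 81 (*so*, *toy*, *svp*, *hbn* and *danr*). The list's median enrichment went from 0.60 at t1 to 0.09 at t3, and in the mutant 7 of the 15 were higher and 2 lower in GFP+ cells by the limma limits given below, which 5.89% and 8.18% of all genes passed. *so*, the Six-family homeodomain factor of eye determination, stood at 7.96, 8.0, 8.0 and 8.27 in GFP+ and 6.90, 6.91, 7.22 and 7.24 in GFP− cells at t1. At t3 it stood at 8.53, 8.40, 8.55 and 8.55 in GFP+ and 8.31, 8.54 and 8.60 in GFP− cells. The level of *so* was higher in both fractions at t3, and more so in GFP− cells (2.66-fold), where its arrays came to overlap those of GFP+ cells. *hbn*, a homeodomain factor of the anterior brain, went the other way, from 7.70, 7.45, 7.24 and 7.39 in GFP+ cells at t1 to 6.76, 6.53, 6.79 and 6.77 at t3, with GFP− levels between 6.67 and 6.84 at both times. *danr*, a pipsqueak-domain factor of eye and antenna, fell from 8.49, 8.59, 8.41 and 8.47 to 7.26, 7.33, 7.45 and 7.39 in GFP+ cells and by 0.56 in GFP− cells.

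*klu*, a zinc finger factor of neuroblasts and bristle precursors, rose 3.70-fold in GFP− cells, from 7.43, 7.68, 7.82 and 7.43 at t1 to 9.69, 9.56 and 9.18 at t3. In GFP+ cells it reached 10.13, 10.05, 9.92 and 10.08 at t2 and read 10.01, 9.92, 9.26 and 8.97 at t3, so that the t3 arrays were spread widely. *Rx*, the retinal homeobox gene, was dim throughout, with group means between 4.60 and 5.50. *klu* and *Rx* were the members on a list of brain and optic progenitor genes (14 measured, 5 enriched at t1, 7 higher and 2 lower in mutant GFP+ cells). *dpn*, a Hes-type repressor of neuroblasts and sensory precursors, was the only one on a list of sensory precursor regulators, of which 15 of 22 measured were enriched at t1 and 12 at t3. Its GFP+ level went from 11.06, 11.28, 11.04 and 11.27 at t1 to 10.05, 9.96, 10.16 and 10.08 at t2 and 10.04, 10.43, 10.61 and 10.48 at t3, while the GFP− level dipped to between 8.83 and 9.12 at t2 and returned to between 10.20 and 10.33. On the list of Dpp pathway and dorsal ectoderm genes (21 measured, 8 enriched at t1, 9 higher and 2 lower in mutant GFP+ cells) the members were *tsg* and *tok*, a tolloid-related metalloprotease whose GFP− level rose 2.83-fold and whose GFP+ arrays of t1 and t3 overlap. Over all genes, 5.89% were higher and 8.18% lower in mutant GFP+ cells by the limma limits given below. Of 15 measured antennal and head appendage genes, 10 were enriched at t1, 10 at t3 and none is among the 81. No member stood on the lists of segment polarity, gap and pair-rule, Notch, EGFR, Hox, tracheal, axon guidance, adhesion, glycolysis or cilium genes. These lists hold between 4 and 21 measured genes, and the members are 81 of 11982, so nothing is read from their absence. The lists are also incomplete: *mew*, *wb* and *Notum*, named below, are on none of them.

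Of the remaining genes a few are named here, picked after their values had been seen. *mew*, an integrin alpha subunit, and *wb*, a laminin alpha chain that integrins bind, had similar values, with enrichments of 0.74 and 0.87 at t1 and 0.12 and 0.20 at t3. Their GFP− levels rose by 0.77 and 0.88 and their GFP+ levels by 0.16 and 0.21. The zinc finger genes *elB* (GFP− rise 2.07) and *jing* (0.61) and the RNA-binding protein gene *Fmr1* (0.97) belonged to the same class. *Notum*, a secreted Wnt antagonist, lost its enrichment by t2 (0.77, 0.17 and 0.15) and its GFP+ level fell by 1.18. *ced-6*, an engulfment adaptor gene, fell by 0.86 in GFP+ cells. The potassium channel gene *sand* fell by 1.59 and *ppk30*, of the pickpocket sodium channel family, by 0.67. Over the 43 genes the GFP+ change lay between −4.57 and −0.62, and over the 29 genes the GFP− change lay between 0.61 and 4.16.

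**Figure D3:**
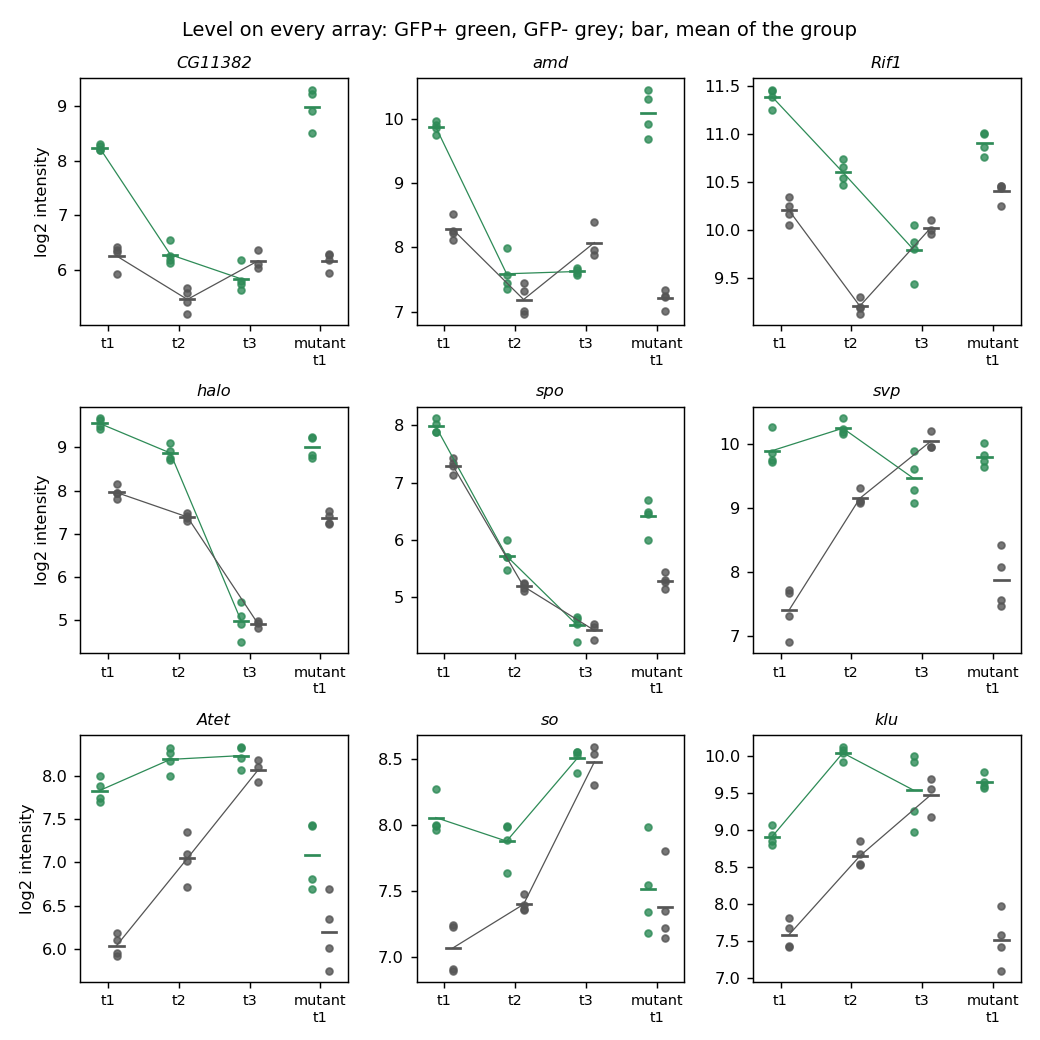
Log2 level of 9 genes on every array, GFP+ in green and GFP− in grey, with a bar at each group mean and lines joining the wild-type means. In *CG11382*, *amd* and *Rif1* the green points come down to the grey ones, in *halo* and *spo* both come down, and in *svp*, *Atet*, *so* and *klu* the grey points come up.

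*toy*, a Pax6 gene at the top of the eye determination cascade, depends on the probe set read. On the brightest, the GFP+ arrays read 9.41, 9.53, 9.37 and 9.36 at t1 and 8.72, 8.99, 9.02 and 9.38 at t3, and the GFP− arrays 7.68, 7.75, 7.96 and 7.65 at t1, 9.41, 9.44, 9.38 and 9.24 at t2 and 8.66, 8.72 and 9.11 at t3. By this probe set the GFP− level rose and the enrichment went from 1.65 to −0.38 and 0.20. On the second probe set the enrichment was 4.21, 4.25 and 0.94, on the third 3.43, 3.49 and 0.76, and the GFP+ level fell by 2.60 and 2.49. In GFP− cells it rose by 0.67 on the second, past the 1.5-fold limit, and by 0.18 on the third. Neither meets the rule, so the second shows both changes, the third a GFP+ fall alone and the brightest a GFP− rise alone. Of the other 16 genes with further probe sets, a second one met the rule in *svp*, *mew* and *tinc*. That of *svp*, which is dim, gave a GFP+ change of −1.08 beside a GFP− rise of 0.63, both past the limit, where the brightest gave a GFP− rise alone. A second probe set of *Alh* kept an enrichment of 0.61 at t3. Only 6 of the 27 further probe sets were enriched 1.5-fold at t1, and many lay near 0 at both times. The enrichment was lower at t3 than at t1 in 25 of them.

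**Figure D4:**
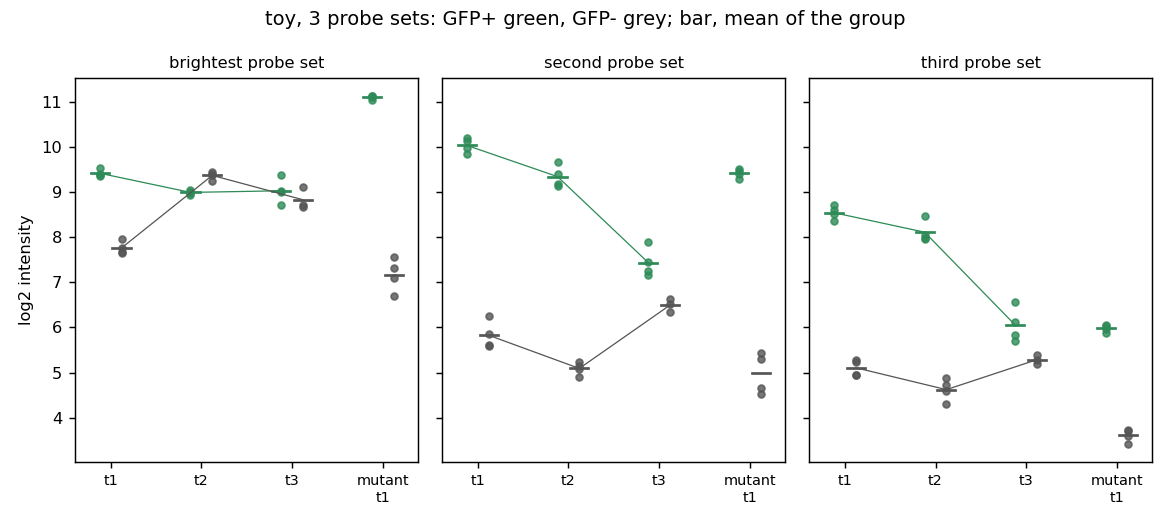
Log2 level of *toy* on every array for its 3 probe sets, from the brightest to the dimmest, GFP+ in green and GFP− in grey, with a bar at each group mean. On the brightest the grey points lie above all the green ones at t2. On the others the green points stay above the grey ones at t2 and come down at t3.

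In the 8 genes with neither change the GFP+ level went down in each, by between 0.12 in *Alh* and 0.57 in *MRP*, and the GFP− level went up in all but *MRP* (−0.04). The largest losses of enrichment from t1 to t3 were those of *CG30156* (−0.81), *Abca3* (−0.74), *Alh* (−0.70), *ckn* (−0.64), *CG4210* (−0.61) and *Pvf3* (−0.55), the gene of a PDGF/VEGF-like ligand. *CG32447* alone passed both limits. Its GFP+ levels went from 9.11, 9.15, 9.17 and 9.27 to 8.58, 8.39, 8.07 and 8.27 and its GFP− levels from 6.91, 7.03, 7.14 and 7.21 to 8.39, 8.23 and 8.01, so neither fraction overlaps between the times and the fractions overlap at t3.

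Marker lists changed between t1 and t3, not all in the same direction. The 6 measured markers of the sensory lineage had a median enrichment of 3.40 at t1 and 1.84 at t3, lower in 5 of the 6. Their mean on the GFP+ arrays lay between 9.32 and 9.73 at t1 and between 8.03 (replicate 3) and 9.30 at t3, and *ato* itself changed by −4.22 in GFP+ cells. The 6 measured mesoderm and muscle markers averaged between 6.49 and 7.01 on the GFP+ arrays at t1 and between 7.70 and 8.54 at t3, and 5 of the 6 were less depleted at t3. All 6 were depleted at t1. Haemocyte markers in GFP+ cells went from between 6.09 and 6.34 to between 7.59 and 8.25 (6 of 10 with a higher enrichment at t3). In GFP− cells the haemocyte median rose as well, from 7.28 to 8.42. In GFP+ cells endoderm and yolk markers went from between 7.01 and 7.49 to between 8.32 and 9.05 (4 of 5). Among the GFP+ arrays of t3, the highest value of the mesoderm, haemocyte and endoderm lists was that of replicate 3. That array also had the lowest array weight of all 31 (0.418). The neuroblast list, which holds *dpn* and *cas*, went in GFP− cells from between 9.98 and 10.23 to between 10.61 and 10.85, and in GFP+ cells from between 10.14 and 10.39 to between 10.48 and 10.90. In GFP+ cells the germ line median went from 4.46 to 4.31 and the amnioserosa and dorsal ectoderm median from 9.17 to 8.88. The tracheal (9.82 to 10.27), epidermal (9.07 to 10.23) and glial (8.83 to 10.84) medians rose there. Some lists share genes. *srp* is on the haemocyte and endoderm lists, *gcm* on the haemocyte and glial lists and *ush* on the haemocyte and dorsal ectoderm lists. The lists are therefore not independent. The part of these changes in the fading of the 81 genes was not tested. Without GFP+ replicate 3 of t3, 67 of the 81 met the rule and no others did. The 14 that did not then stood between 0.20 and 0.33 at t3, and *Atet*, *CG32447*, *toy*, *Rx*, *wb*, *Notum* and *Elba2* are among them.

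The same measures were read in arrays that had not chosen the genes by repeating the choice without 1 replicate number and reading the enrichment between the arrays of that number. Left out were number 1, 2 or 3, which chose 83, 73 and 89 genes and shared 68, 67 and 68 with the 81. In the arrays left out the median enrichment at t1 was 0.79, 0.86 and 0.63, and at t3 −0.03, −0.09 and 0.05. There 59 of 83, 60 of 73 and 53 of 89 genes reached the 1.5-fold limit at t1, and 67, 58 and 73 lay below 0.2 at t3. The enrichment was lower at t3 than at t1 in 79, 72 and 84. Of genes chosen with a fall in GFP+ cells, 38 of 43, 39 of 40 and 44 of 52 had also fallen past the limit there, and of those with a rise in GFP− cells, 26 of 31, 24 of 25 and 24 of 29 had risen past it. On the group means of all arrays, 14.7% of all genes had such a GFP+ fall and 13.7% such a GFP− rise. Shares over all genes were not computed in the arrays left out. Each gene was still read from its brightest probe set over all 31 arrays.

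The mutant comparison asks whether enrichment at t1 was also present without functional *ato*. By the study's account, most mutant GFP+ cells are not specified as chordotonal precursors and stay ectodermal. It adds that some chordotonal neurons still form in the mutant, through redundancy with the related gene *cato*. Mutant and wild-type GFP+ cells are therefore not the same cell population, and a mutant enrichment need not be that of precursors. In mutant GFP+ against GFP− cells, 48 of the 81 genes passed as higher, at 1.5-fold or more and an adjusted p no larger than 0.01 (limma with Benjamini-Hochberg adjustment over all probe sets), where 5.89% of all genes were. With limma's treat, which tests against 1.5-fold itself, 23 were higher. Lower by the same limits was 1 gene, *Elba2* (8.18% of all genes). The other 32 did not pass. The mutant enrichment was above 0 in 74 of the 81 (59.2% of all genes), and its median was 0.74 (0.04 over all genes). All mutant GFP+ arrays lay above all GFP− arrays in 59 (19.7% of all genes). Of the 153 genes enriched at both t1 and t3, 123 were higher in mutant GFP+ cells by the same limits, with a median of 1.26. By class, 27 of the 43 genes with a GFP+ fall were higher, 17 of the 29 with a GFP− rise, 3 of the 8 with neither change, and *CG32447*. Whether the classes differ was not tested.

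The 10 largest mutant enrichments were those of *toy* (3.93 ± 0.13, SE), *amd* (2.88 ± 0.14), *CG11382* (2.80 ± 0.14), *klu* (2.13 ± 0.17), *svp* (1.92 ± 0.18), *tok* (1.79 ± 0.11), *halo* (1.66 ± 0.13), *CG17646* (1.62 ± 0.14), *danr* (1.42 ± 0.11) and *tinc* (1.37 ± 0.10), with adjusted p from limma between 8.261e-21 and 3.268e-10. On the brightest probe set of *toy* the mutant GFP+ arrays read 11.12, 11.04, 11.13 and 11.11 and the GFP− arrays 7.09, 6.70, 7.32 and 7.55, a 15.3-fold difference. Mutant GFP+ cells thus lay above wild-type GFP+ cells of the same age by 1.68 on this probe set. The other probe sets of *toy* gave mutant enrichments of 4.43 and 2.37, and there the mutant GFP+ arrays lay below the wild-type ones.

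In *amd* the wider gap in the mutant came from the other fraction. Mutant GFP+ arrays read 10.30, 10.45, 9.69 and 9.91, overlapping the wild type, and mutant GFP− arrays 7.01, 7.23, 7.25 and 7.34, all below the wild-type GFP− arrays. *CG11382* stood at 9.30, 9.21, 8.90 and 8.50 in mutant GFP+ cells, above every wild-type GFP+ array, and at 6.29, 5.95, 6.18 and 6.29 in mutant GFP− cells. *svp* stood at 9.64, 9.72, 10.02 and 9.82 against 7.46, 7.57, 8.07 and 8.41. In 33 of the 81 genes the mutant enrichment was larger than that of wild type at t1, and in 20 it was below 50% of it. Over all genes, more differed between the fractions in the mutant. There 733 genes were at least 1.5-fold higher and 995 lower in GFP+ cells, beside 325 and 596 in wild type at t1. The median of the mesoderm and muscle markers was 4.97 in mutant and 6.76 in wild-type GFP+ cells of t1. The counts of 33 and 20 were not computed over all genes, and the part of this wider spread in them was not tested.

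Several genes with a clear wild-type difference had little in the mutant. *so* stood at 7.18, 7.34, 7.99 and 7.55 in mutant GFP+ and at 7.22, 7.15, 7.35 and 7.80 in mutant GFP− cells, a difference of 0.14 ± 0.13 (adjusted p = 0.5479, limma), and these arrays overlap. The sign of this difference turns when GFP+ replicate 3 is left out. *twz* (0.19 ± 0.23), *Osi24* (0.10) and *insb* (0.10) were also close to 0, as was *grsm* (0.07). *CG32037* had 0.45 ± 0.11 in place of 1.75 (adjusted p = 0.002112, limma, under 1.5-fold). *Rif1* (0.51 ± 0.09, adjusted p = 6.127e-05, limma) and *tsg* (0.51 ± 0.13) were likewise higher by less than 1.5-fold. *cas* had 0.74 ± 0.23 (adjusted p = 0.01183, limma), which passed with the replicate number as a block (adjusted p = 0.001062). Below 0 were, besides *Elba2*, *CG30156* (−0.43), *ced-6* (−0.24), *Abca3* (−0.19), *CG4991* (−0.18), *CG33090* (−0.15) and *dy* (−0.14).

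*Elba2*, which encodes a subunit of the ELBA insulator complex of the early embryo, was opposite in the genotypes. In wild-type cells at t1 it stood at 6.39, 6.48, 6.29 and 6.33 in GFP+ and at 5.76, 5.65, 5.54 and 5.77 in GFP− cells. In mutant cells it stood at 6.31, 6.13, 6.18 and 6.09 in GFP+ and at 8.14, 8.44, 8.35 and 7.51 in GFP− cells (−1.93 ± 0.12, adjusted p = 2.608e-14, limma). The mean GFP+ levels of the genotypes differed by 0.19, and every mutant GFP− array was above every other array of this gene.

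**Figure D5:**
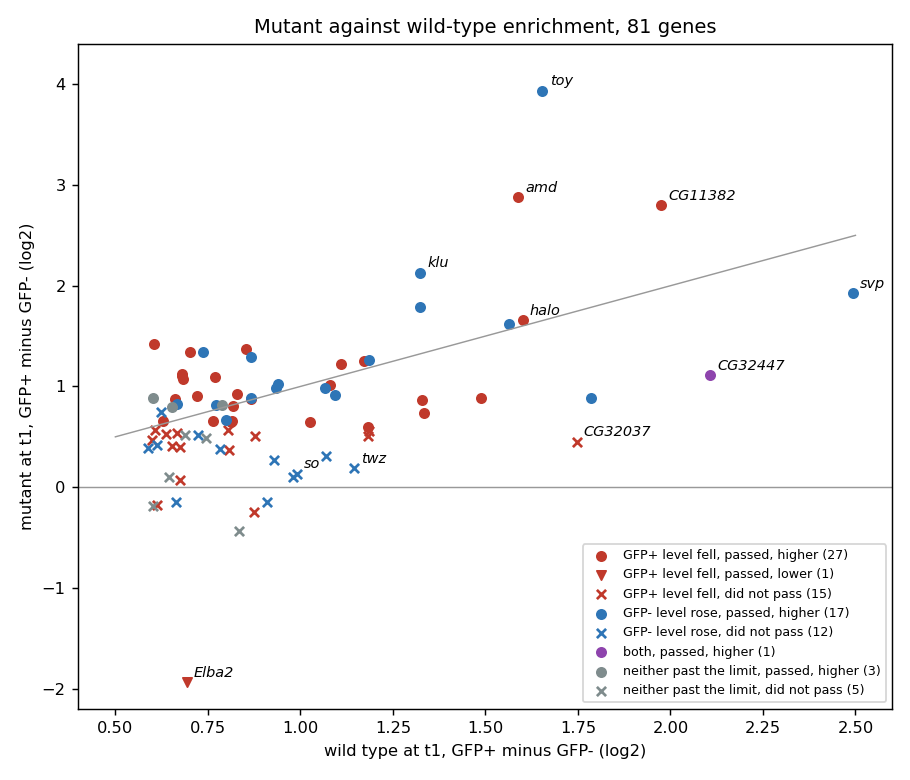
Mutant enrichment at t1 against wild-type enrichment at t1 (both GFP+ minus GFP−, log2) for the 81 genes, with circles for genes that passed as higher, a triangle for the one that passed as lower and crosses for the rest; grey lines mark 0 and equal values. The points of *toy*, *amd* and *CG11382* lie far above the line of equal values, *so* and *twz* near 0, and *Elba2* at −1.93.

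The levels of *spo*, *tsg*, *CG15628* and *CG16815*, which fell with age in both wild-type fractions, were also lower in both mutant fractions at t1. These 4 were picked, after their values had been seen, from the 13 genes that fell in both fractions. Others of the 13 differed less, such as *RecQ4* (wild type higher by 0.18 in GFP+ and 0.40 in GFP−) and *Phf7* (0.31 and 0.30). *Elba2* was higher in mutant GFP− cells. *spo* read 6.70, 6.45, 6.49 and 6.0 in mutant GFP+ and 5.26, 5.44, 5.29 and 5.15 in mutant GFP− cells, beside 7.28, 7.35, 7.42 and 7.13 in wild-type GFP− cells of that time. *tsg* read 5.95, 6.20, 5.72 and 5.53 in mutant GFP+ and 5.54, 5.43, 5.25 and 5.15 in mutant GFP− cells, beside 6.51, 6.82, 6.50 and 6.17. In *CG15628* wild-type cells exceeded mutant cells by 0.85 in GFP+ and 0.97 in GFP−, and in *CG16815* by 1.07 and 1.00. Over the 81 genes, wild-type GFP+ cells were at least 1.5-fold above mutant ones in 17 (3.04% of all genes) and below in 3 (3.67%). For GFP− cells the counts were 11 (4.48%) and 6 (6.13%). These genotype differences rest on the wild-type arrays of t1, which chose the genes, and carry no test.

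Genes of the set lay near each other at a few places. In the order of genes along the chromosome, *Nazo*, *CG31464* and *CG9626* followed each other at steps of 2 genes, *vimar* and *CG30156* lay 3 genes apart, *Rx* and *hbn* 4, *danr* and *CG13653* 4, and *mus301* and *RecQ4* and *CG15628* and *CG12194* 5 each. Such neighbours need not share a class: *Nazo* and *CG31464* fell in GFP+ cells, *CG9626* rose in GFP− cells. How often genes at random lie this close was not computed.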

How the data were processed

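RNA of sorted cells was hybridised to Affymetrix *Drosophila* 2.0 arrays. Per probe set, the authors deposited a log2 intensity computed by RMA with quantile normalisation in AffyPLM (versions not given in the sources used here), so background correction and scaling are theirs. Of 18952 probe sets 183 controls were left out; of 18769 tested, 13647 name 1 gene in the platform's table, 402 several and 4720 none, which gave 11982 genes. Number of arrays limits the precision. Replicates are described as independent samples.

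One limma model (version 3.58.1, R 4.3.3) took in all 31 arrays, with 1 mean per group (8 in all) and Benjamini-Hochberg adjustment; it was tested on simulated data first. Only the mutant contrast was tested for the 81 genes. The genes and lists were chosen with earlier results of these data known. Genes are named as members with the largest enrichment at t1 (12), the largest change in each class (6), the largest mutant differences (10), on lists, or nearest to a limit (3); any others were named after their values were seen. Replicate 4 of GFP− cells at t2 is GFP− by its title and GFP+ by its source name; it was used as GFP−.

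GFP+ and GFP− samples share replicate numbers, and the study's methods describe both being collected in each run. In the mutant the 4 correlations of the deviations of same-numbered arrays lay between 0.213 and 0.299. Arrays of different numbers were not compared, so these values alone cannot show whether the numbers pair the samples. In wild type such correlations lay between 0.068 and 0.327 at t1, −0.019 and 0.065 at t2, and 0.037 and 0.558 at t3. The main model has no block. Alternatives were cyclic loess, centring on 40 ribosomal protein probe sets, another limit of change, the mean of all probe sets of a gene, dim probe sets left out, each array left out and, for the mutant, a fit of its arrays alone, a replicate block, an intensity trend, array weights, treat and another limit on p.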

Additional observations from a re-analysis of the deposited data

Results flagged for a closer look

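*Elba2* was higher on every GFP+ array than on every GFP− array in wild-type cells at t1 and lower on every one in mutant cells (−1.93). This difference between genotypes was not tested, since the wild-type arrays chose the gene. Over 22 genes shown by array, 154 groups of 4 arrays were examined and 9 held an array far from the others, where chance flags about 1 in 20. In wild-type GFP− cells these were *svp* at t2 (9.31 in replicate 2, others 9.08 to 9.11), *danr* at t1 (7.99 in replicate 3, others 7.84 to 7.87), *CG30156* at t1 (6.82 in replicate 4, others 6.37 to 6.42) and *Elba2* at t2 (5.58 in replicate 3, others 5.40 to 5.42). In wild-type GFP+ cells they were *so* at t1 (8.27 in replicate 4, others 7.96 to 8.0), *so* at t3 (8.40 in replicate 2, others 8.53 to 8.55) and *hbn* at t3 (6.53 in replicate 2, others 6.76 to 6.79). In mutant GFP− cells they were *Rif1* (10.26 in replicate 4, others 10.44 to 10.46) and *danr* (7.63 in replicate 3, others 7.25 to 7.29).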

How the results depend on the processing

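The number of genes that met the rule lay between 67 (without wild-type GFP+ t3 replicate 3) and 91 (without wild-type GFP− t1 replicate 3) when arrays were left out, and was 88 under cyclic loess, 80 under ribosomal centring, 74 without dim probe sets and 71 with the mean of all probe sets of a gene. Of the 81 genes, 76 were still chosen under cyclic loess, 69 with the mean of probe sets and 49 under ribosomal centring, which raises the enrichment of every gene by the same amount within a time point. Leaving out wild-type arrays gave 42 to 44 genes with a GFP+ fall, 29 to 30 with a GFP− rise, 1 to 2 with both (2 without wild-type GFP− t3 replicate 3) and 7 to 9 with neither. With a limit of 1 log2 unit 0 genes had both changes and 29 neither. In the mutant, 46 to 52 genes were higher and 1 lower when mutant arrays were left out, 49 with the replicate block, which changed the call of *cas* alone, 61 under ribosomal centring, 44 under cyclic loess and 23 with treat against 1.5-fold. The sign turned for the mutant enrichment of twz (−0.011 without mutant GFP+ replicate 4, up to 0.43 without other arrays), the mutant enrichment of so (−0.022 without mutant GFP+ replicate 3, up to 0.28) and the mutant enrichment of grsm (−0.052 under cyclic loess); none of these passed the test. Causes were not tested. Genes near a limit, those with 1 probe set and those of low signal are the least certain, and t3 rests on 3 GFP− arrays.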

Other observations

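The 4 measured glial genes had a median enrichment of −1.64 at t1 and 0.20 at t3, and 3 of them were less depleted at t3. The transcription factor *gcm*, which directs glial fate, went from −2.41 to 0.06, and *repo*, the glial homeodomain gene, from −0.86 to 0.34. Epidermal and dorsal ectoderm markers moved in both directions. The enrichment of *pnr* went from −1.85 at t1 to −0.15 at t3, of *ush* from −1.12 to −0.14 and of *Doc1* from 0.68 to 1.29, while that of *peb* went from 1.24 to 0.57.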
